A study of Homo sapiens with 6 samples.

Results

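The ETS family of transcription factors and the FET genes EWSR1 and TAF15 were examined by RNA sequencing of TC-71, a line of human Ewing sarcoma cells. The genes were chosen by family membership, as table rows whose symbol equals 1 of 30 names, 28 of them ETS genes. A row was found for 29 of the 30 among 48114 rows, and 24 of these, 22 of them ETS genes, were among the 23923 rows with enough signal to test. SPI1 was not analysed here. Cells were kept for 16 h in BEZ235, an inhibitor of the kinases PI3K and mTOR, or in its solvent dimethyl sulfoxide (DMSO), with 3 libraries in each group. Both groups are the same line with a genotype marked as wild type, so the results describe 1 line. Per the labels' protocols the libraries are biological replicates, and the sources used here do not give the dose.

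ETS proteins share a DNA-binding domain that recognises a GGAA core, and they differ in the flanking bases, partner proteins and regulatory domains that set whether they activate or repress. Many are end points of RAS-ERK signalling: phosphorylation activates ternary complex factors such as ELK1, inactivates the repressor ERF, and lifts repression of the PEA3 genes ETV1, ETV4 and ETV5 by the protein CIC. FET proteins bind RNA and RNA polymerase II, and their low-complexity amino-terminal part is a strong activation domain. In Ewing sarcoma a chromosome translocation joins that part of a FET protein, usually EWSR1, to the DNA-binding domain of an ETS protein, usually FLI1 and more rarely ERG, FEV, ETV1 or ETV4. TC-71 carries an EWSR1-FLI1 fusion. The EWSR1 and FLI1 rows therefore mix fused and unfused transcripts, and a gene-level table cannot separate them.

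Promoter sequences from RefSeq (GRCh38.p14) matched 23 of the 30 genes, each as a window of 300 bases that runs from 250 before to 50 after an annotated start. Some genes list several starts, ETV1 6 of them, and the start nearest the edge of the gene's row was kept. The kept start lay at most 3164 bases from that edge, for EHF. TAF15, ETV5, ETV7, FLI1, ETS1, ETV4 and SPI1 have no entry. The windows of 5 genes that passed the test described below are printed 5′ to 3′, because they let the ETS core be seen in the promoters of ETS genes themselves. Other genes with a window, among them ELK1, passed as well, so the choice is not a ranking by change. Capitals mark GGAA, or TTCC where the core lies on the other strand.
FEV, chr2:218985135-218985434, minus strand: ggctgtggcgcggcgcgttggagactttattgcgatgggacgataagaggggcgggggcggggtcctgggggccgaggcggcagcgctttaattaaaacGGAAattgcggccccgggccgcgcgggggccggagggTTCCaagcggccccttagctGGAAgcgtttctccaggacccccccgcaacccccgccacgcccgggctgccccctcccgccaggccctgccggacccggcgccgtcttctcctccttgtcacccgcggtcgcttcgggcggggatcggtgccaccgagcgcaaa
ERF, chr19:42255079-42255378, minus strand: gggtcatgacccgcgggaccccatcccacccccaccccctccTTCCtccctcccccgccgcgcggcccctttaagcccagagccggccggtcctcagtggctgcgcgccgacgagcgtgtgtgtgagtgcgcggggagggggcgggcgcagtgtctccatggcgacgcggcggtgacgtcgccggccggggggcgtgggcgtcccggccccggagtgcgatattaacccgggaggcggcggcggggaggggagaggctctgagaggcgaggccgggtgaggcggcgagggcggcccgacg
ETS2, chr21:38804933-38805232, plus strand: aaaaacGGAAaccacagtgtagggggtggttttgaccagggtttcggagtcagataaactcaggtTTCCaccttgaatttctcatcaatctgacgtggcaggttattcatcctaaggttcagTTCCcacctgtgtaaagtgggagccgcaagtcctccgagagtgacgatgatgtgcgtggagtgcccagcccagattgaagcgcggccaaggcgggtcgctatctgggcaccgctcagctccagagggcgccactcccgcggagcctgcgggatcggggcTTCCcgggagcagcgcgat
ELK4, chr1:205631962-205632261, minus strand: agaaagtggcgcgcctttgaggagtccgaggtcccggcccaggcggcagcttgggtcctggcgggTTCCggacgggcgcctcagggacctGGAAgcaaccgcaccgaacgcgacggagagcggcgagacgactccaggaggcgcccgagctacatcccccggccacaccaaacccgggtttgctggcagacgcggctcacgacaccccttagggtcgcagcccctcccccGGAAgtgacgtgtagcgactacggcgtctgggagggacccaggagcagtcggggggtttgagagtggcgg
GABPA, chr21:25734722-25735021, plus strand: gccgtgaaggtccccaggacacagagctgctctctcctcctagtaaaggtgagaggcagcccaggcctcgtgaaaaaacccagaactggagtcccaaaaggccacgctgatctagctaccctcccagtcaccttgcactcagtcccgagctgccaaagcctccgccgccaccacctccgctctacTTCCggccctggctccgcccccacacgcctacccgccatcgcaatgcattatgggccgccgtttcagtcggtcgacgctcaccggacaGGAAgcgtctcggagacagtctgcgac
Within these windows the 4-base core GGAA, searched on both strands, occurred 3 times for FEV, 1 time for ERF, 4 times for ETS2, 3 times for ELK4 and 2 times for GABPA. The core is common: 95.45% of 35116 RefSeq promoters of this length held it, with a median of 3 matches. The longer motif CCGGAA, which contains the core, occurred 2 times for ELK4 and 1 time for GABPA, and ETV1, ETV2 and ETV3L had 1 match each. That is 5 of 23 genes (21.7%), against 17.25% of all promoters. The share of genes counts 1 start per gene, and the share of all promoters counts every listed start. CCGGAAGT, which contains both shorter motifs, occurred 1 time for ELK4 and 1 time for GABPA. That is 2 of 23 genes (8.7%), against 4.14% of all promoters, and both are among the windows chosen for printing. The octamers bound by CIC, TGAATGAA and TGAATGGA, were found 1 time each, the first in the SPDEF window (1.65% of all promoters) and the second in the ETV1 window (1.03%). FEV, ERF and ETS2 held none of these longer motifs in the printed windows.

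The deposited values are normalized counts, and each was a whole multiple of a step that differs between libraries, so counting units could be recovered. They summed to between 184790722 and 233767211 units per library. Within a group, Pearson's r of log2 values across genes was 0.982 to 0.987, and between groups it was 0.927 to 0.939. Counts within a group differed by more than the sampling noise that independent units would have. Low values piled up at multiples of 3 units, so a unit is not 1 independent read, and that noise is only a rough yardstick. The 3 libraries of each group were compared with limma on log2(normalized count + 1), with Benjamini-Hochberg adjustment over all tested genes and a threshold of 0.05. By this test 66.3% of all tested genes were called, 33.1% higher and 33.2% lower with BEZ235. Every count of family members, markers or listed genes has to be read against these shares. In bulk samples, fewer cells of a type and less RNA per cell cannot be told apart. All 10 Ewing sarcoma markers were tested, but CCK was low, at 12.8 to 46.2 normalized counts with BEZ235 and 67.1 to 86.4 with DMSO. The sum of the 10 genes was 263200 to 268300 normalized counts with BEZ235, against 338500 to 359000 with DMSO. CD99 made up most of it, averaging 208400 with BEZ235 and 263200 with DMSO. CD99, NR0B1 and BCL11B were highest in DMSO. Of these 10 genes, 4 rose and 6 fell. Of 11 fibroblast markers 10 were tested, 4 rose and 4 fell, and their sum was 43440 to 45120 normalized counts with BEZ235, against 49420 to 52050 with DMSO, with COL3A1, ACTA2 and COL1A1 highest in DMSO. Mitochondrial transcripts took 0.51 to 0.71% of all normalized counts with BEZ235 and 2.82 to 3.55% with DMSO.

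Of the 24 tested ETS and FET genes, 19 (79.2%, against 66.3% of all tested genes) were called, 8 higher and 11 lower with BEZ235. Changes of at least 2-fold were seen for FEV and SPIB, which rose, and for ETS1, ELK4, ELF3 and SPDEF, which fell, against 12.7% of all tested genes higher and 13.6% lower by that much. The median log2 fold change of the 24 genes was -0.11 (all tested genes, 0.00), and its median size without regard to sign was 0.43 (all tested genes, 0.60). The BEZ235 and DMSO values did not overlap for 17 of the 24, against 70.9% of all tested genes. No tested member changed direction under another scaling of the libraries. Scaling to equal total counts of the rows with a symbol moved the median of all genes to -0.13. The number of members called higher was then 4 in place of 8. With the filter on low values at 50 in place of 10 normalized counts, 7333 of 19791 tested genes were called higher and 7442 lower. Of the members, 7 were called higher and 9 lower at that filter.

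**Figure D1:**
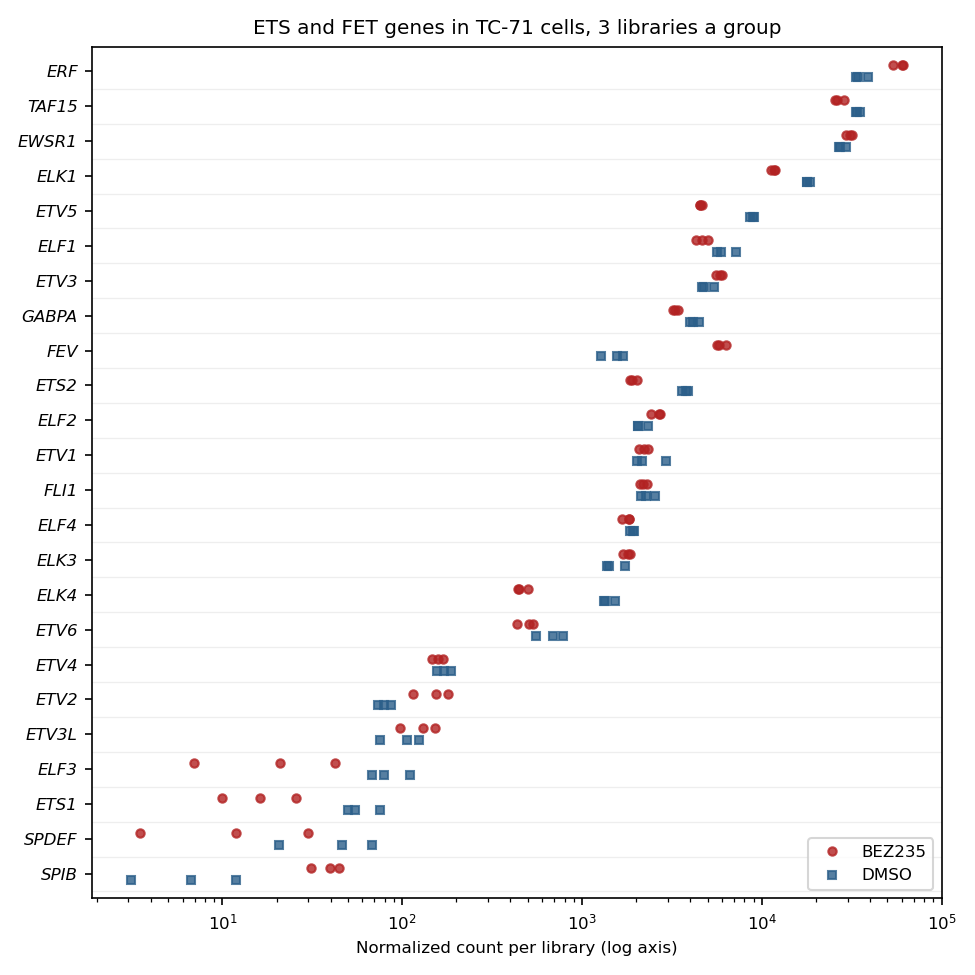
Normalized counts of the 24 tested ETS and FET genes in each library on a log axis, with BEZ235 libraries as circles above DMSO libraries as squares. Genes are ordered by the mean over all 6 libraries. ERF is highest; the FEV circles (5656 to 6322) stand clear to the right of its squares (1277 to 1699), and the ELK4 circles (439 to 504) clear to the left of its squares (1330 to 1527).

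The FET genes EWSR1 and TAF15 were among the most abundant of the family and differed little. EWSR1, the RNA-binding protein that supplies the activation domain of the fusion (FASTDB gene GSHG0028521, hg38 chr22:29268009-29300522), had 30945, 31697 and 29392 normalized counts with BEZ235, against 27056, 29511 and 26937 with DMSO. The lowest BEZ235 library lay below the highest DMSO library, so the groups overlapped. The means were 30680 ± 1175 with BEZ235 and 27830 ± 1453 with DMSO (SD, n = 3 each), a log2 fold change of 0.14 (standard error 0.056, limma adjusted p = 0.0441). This call was lost in 7 of 18 alternative analyses, among them scaling to equal totals, where the log2 fold change was 0.01 (limma adjusted p = 0.891), and leaving out BEZ235 library 1 or 2 or DMSO library 1 or 3, where the limma adjusted p was 0.114 to 0.168. The EWSR1 row shares its first bases with the row of RHBDD3, which had 2428 normalized counts with BEZ235 and 2273 with DMSO.

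TAF15, a FET protein that associates with the general transcription factor TFIID, fell modestly (GSHG0019831, chr17:35809484-35847242). It had 28653, 26196 and 25632 normalized counts with BEZ235, against 33266, 35275 and 33893 with DMSO. Every BEZ235 library lay below every DMSO library. Its mean was 26830 ± 1606 with BEZ235 and 34140 ± 1028 with DMSO (SD, n = 3 each), a log2 fold change of -0.35 (standard error 0.056, limma adjusted p = 0.00023). The TAF15 row overlaps 3 unnamed rows, at 18.6, 117 and 197 normalized counts with BEZ235 and 44.9, 219 and 361 with DMSO. Per kilobase of merged exons, the order of the most abundant of the 24 genes was ERF, TAF15, ELK1 and EWSR1 in both groups. This order depends on the length used. Merged exons were 10.323 kb for EWSR1 and 5.194 kb for TAF15, against 2.654 and 2.191 kb for their longest coding transcripts.

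FLI1, whose DNA-binding domain is the usual fusion partner, did not pass the test (GSHG0006895, chr11:128686535-128813267). Its row had 2290, 2175 and 2105 normalized counts with BEZ235, against 2123, 2537 and 2264 with DMSO. The highest DMSO library stood above all others, and the other 5 lay between 2105 and 2290. The log2 fold change was -0.07 (standard error 0.078, limma adjusted p = 0.428), with a 95% interval of -0.25 to 0.10. Changes of the mixed FLI1 and fusion signal within those bounds are compatible with these libraries. An unnamed row inside the FLI1 gene had 541 normalized counts with BEZ235 and 600 with DMSO, and its reads may be shared.

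ERG and FEV are the nearest relatives of FLI1 and rarer fusion partners. ERG had 0 units in all 6 libraries; 3 units, the usual upper limit for a count of 0, correspond to 2.50 to 3.47 normalized counts, and 9 units, since low values come in multiples of 3, to 7.51 to 10.42. FEV, best known as a regulator of serotonin neurons, rose (GSHG0026322, chr2:218981087-218985659). It had 5748, 6322 and 5656 normalized counts in BEZ235 libraries, against 1277, 1699 and 1572 in DMSO libraries. The lowest BEZ235 library was more than 3-fold above the highest DMSO library. The means were 5909 ± 361 with BEZ235 and 1516 ± 217 with DMSO (SD, n = 3 each), a ratio of 3.92 and a log2 fold change of 1.97 (standard error 0.098, limma adjusted p = 2.55e-08). Across 18 alternative analyses the log2 fold change was 1.84 to 2.06. Of all tested genes, 96.0% had a lower log2 fold change than FEV. No other row overlaps it. Of the rows on either side, CDK5R2, 18.9 kb away, had 644 normalized counts with BEZ235 and 725 with DMSO, and CFAP65, 17.2 kb away, had 74.9 with BEZ235 and 6.04 with DMSO.

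**Figure D2:**
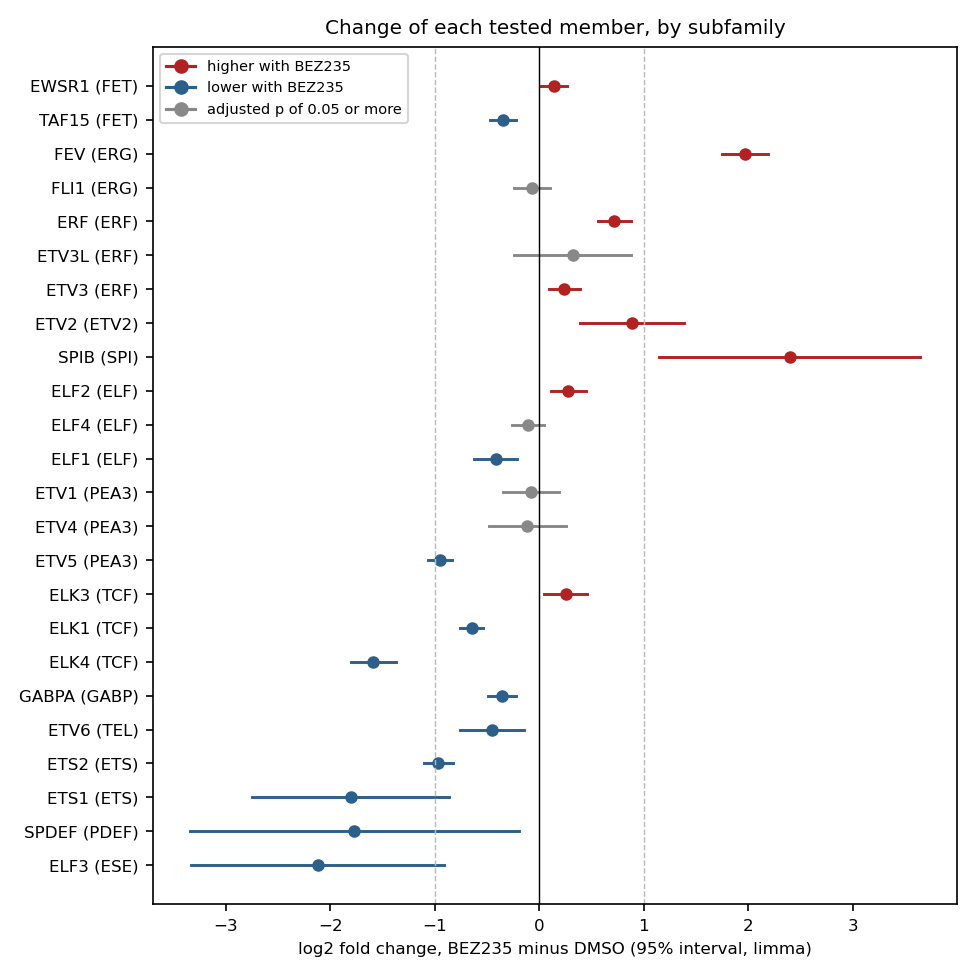
Log2 fold change of each tested gene, BEZ235 minus DMSO, with the 95% interval from limma and the subfamily in brackets; dashed lines mark 2-fold changes and colours the call. FEV (1.97) and SPIB (2.40) lie beyond the right dashed line, ELK4 (-1.59), SPDEF (-1.77), ETS1 (-1.81) and ELF3 (-2.12) beyond the left one, and the low genes have the widest intervals.

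The ERF subfamily comprises transcriptional repressors, and 2 of its 3 members rose. ERF, a repressor that ERK phosphorylation sends out of the nucleus (GSHG0022921, chr19:42247569-42255157), had 60590, 61050 and 53749 normalized counts with BEZ235, against 33455, 38918 and 34387 with DMSO. All 3 BEZ235 libraries lay above all 3 DMSO libraries. Its mean was 58460 ± 4089 with BEZ235 and 35590 ± 2922 with DMSO (SD, n = 3 each), a log2 fold change of 0.72 (standard error 0.072, limma adjusted p = 5.55e-06). ETV3, a related repressor, had 6027, 5844 and 5582 normalized counts with BEZ235 and 5387, 4646 and 4780 with DMSO. The groups did not overlap, but the log2 fold change of 0.24 (limma adjusted p = 0.00841) became 0.11 (limma adjusted p = 0.12) when libraries were scaled to equal totals. ETV3L, the third member, was low at 97.7 to 153 normalized counts with BEZ235 and 75.1 to 124 with DMSO, and did not pass (limma adjusted p = 0.288).

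The ternary complex factors bind serum response elements together with SRF and carry ERK signals to immediate early genes. ELK1 had 11620, 11805 and 11204 normalized counts with BEZ235, against 17834, 18631 and 17789 with DMSO, and fell, with a log2 fold change of -0.65 (standard error 0.049, limma adjusted p = 5.91e-07). ELK4 (GSHG0003504, chr1:205597577-205632011) had 439, 448 and 504 normalized counts with BEZ235, against 1527, 1330 and 1335 with DMSO. In both genes the BEZ235 libraries lay close together and below every DMSO library. ELK4 averaged 464 ± 35.1 with BEZ235 and 1398 ± 112 with DMSO (SD, n = 3 each), a log2 fold change of -1.59 (standard error 0.098, limma adjusted p = 1.19e-07). It had the steepest fall among members with a DMSO mean above 100 normalized counts. The ELK4 row overlaps MFSD4A, which had 125 normalized counts with BEZ235 and 135 with DMSO, and an unnamed row at its start with 55.4 with BEZ235 and 31.1 with DMSO. ELK3, which represses until ERK phosphorylates it, differed in sign. It had 1796, 1860 and 1699 normalized counts with BEZ235 and 1378, 1726 and 1405 with DMSO, so that 1 DMSO library reached into the BEZ235 range. Its log2 fold change of 0.25 (limma adjusted p = 0.0321) missed the threshold in 6 of 18 alternative analyses, with a log2 fold change of 0.12 and a limma adjusted p of 0.322 under total-count scaling, and a limma adjusted p of 0.078 to 0.123 without BEZ235 library 1 or 2 or DMSO library 1 or 3.

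Of the PEA3 genes, which CIC represses and ERK signalling releases, ETV5 fell and ETV1 and ETV4 did not pass. ETV5 (GSHG0032045, chr3:186046314-186109089) had 4542, 4544 and 4624 normalized counts with BEZ235, against 8879, 9049 and 8569 with DMSO. The BEZ235 libraries were nearly equal and far below the DMSO libraries. The log2 fold change was -0.95 (standard error 0.051, limma adjusted p = 4.04e-08), just short of a 2-fold fall. ETV1 had 2083 to 2339 normalized counts with BEZ235 and 2023 to 2936 with DMSO, with a log2 fold change of -0.08 (limma adjusted p = 0.584) that became 0.09 without DMSO library 2. An unnamed row inside the ETV1 gene had 749 normalized counts with BEZ235 and 806 with DMSO, and its reads may be shared. ETV4 was low, at 147 to 169 normalized counts with BEZ235 and 156 to 188 with DMSO (limma adjusted p = 0.559), and its row overlaps DHX8, at 3915 normalized counts with BEZ235 and 5505 with DMSO.

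Both founding members of the family, ETS1 and ETS2, fell. ETS2 (GSHG0027765, chr21:38805183-38824955), an ERK-responsive activator, had 2023, 1857 and 1892 normalized counts with BEZ235 and 3594, 3805 and 3875 with DMSO. The highest BEZ235 library was well below the lowest DMSO library. The means were 1924 ± 87.7 with BEZ235 and 3758 ± 146 with DMSO (SD, n = 3 each), with a log2 fold change of -0.97 (standard error 0.064, limma adjusted p = 2.08e-07). ETS1, which lies 99.0 kb from FLI1 on chromosome 11 (GSHG0008407, chr11:128458765-128587558), was close to the detection limit. It had 16.2, 25.7 and 9.97 normalized counts with BEZ235, against 49.7, 54.8 and 75.1 with DMSO. The groups did not overlap, at 11 to 26 units with BEZ235 and 46 to 90 units with DMSO. The log2 fold change was -1.81 (standard error 0.426, limma adjusted p = 0.00316), and it was -2.12 to -1.38 over 17 alternative analyses.

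GABPA, the subunit of the GABP complex that binds DNA and a regulator of nuclear genes for mitochondrial proteins, had 3190, 3407 and 3284 normalized counts with BEZ235, against 4479, 4166 and 4005 with DMSO. All BEZ235 libraries lay below all DMSO libraries, and GABPA fell by 0.36 on the log2 scale (standard error 0.062, limma adjusted p = 0.000419). Its start overlaps the row of ATP5PF, which had 54114 normalized counts with BEZ235 and 54684 with DMSO, and the sources used here do not give the counting rule that decides whether reads are shared. ETV6, a repressor needed by blood stem cells, had 435, 531 and 507 normalized counts with BEZ235, against 557, 781 and 694 with DMSO. All BEZ235 libraries lay below the DMSO libraries, but its log2 fold change of -0.45 (limma adjusted p = 0.0129) had a limma adjusted p of 0.0537 without BEZ235 library 1. Its relative ETV7 had 1.16, 0 and 7.25 normalized counts with BEZ235 and 4.32, 0 and 4.17 with DMSO, too few to test. ETV2, a factor of endothelial and blood development, was low and rose, with 181, 116 and 155 normalized counts with BEZ235 and 78.9, 86.8 and 73.4 with DMSO (log2 fold change 0.89, standard error 0.225, limma adjusted p = 0.00487). Markers of endothelial cells gave no common pattern: 4 of 10 were tested, 2 rose and 1 fell. PLVAP, counted as a rise, passed the filter on low values through its BEZ235 libraries, so a difference was built into its being tested. The summed level of the 10 was 6595 to 7163 normalized counts with BEZ235 and 7581 to 7795 with DMSO. ENG, CLDN5 and ESAM were highest in DMSO, and VWF and TEK had at most 1 library above 0 in either group.

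Of the ELF genes, broadly expressed activators, 1 fell, 1 rose and 1 did not pass. ELF1 fell, with 5023, 4646 and 4291 normalized counts with BEZ235 and 5600, 7226 and 5892 with DMSO (log2 fold change -0.42, standard error 0.094, limma adjusted p = 0.00236). Its row overlaps 2 unnamed rows, at 425 and 38.0 normalized counts with BEZ235 and 527 and 61.3 with DMSO. ELF2 rose, with 2712, 2667 and 2422 normalized counts with BEZ235 and 2050, 2338 and 2059 with DMSO (log2 fold change 0.28, limma adjusted p = 0.00783), a call lost under total-count scaling (limma adjusted p = 0.142). The ELF2 row overlaps an unnamed row at 5.69 normalized counts with BEZ235 and 29.9 with DMSO. ELF4 had 1829, 1828 and 1664 normalized counts with BEZ235 and 1841, 1955 and 1930 with DMSO. Its groups just failed to overlap, yet it did not pass (limma adjusted p = 0.198), and it passed as lower only under total-count scaling (limma adjusted p = 0.0158).

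The remaining ETS genes are known mainly from epithelia and blood cells and lay near or at the detection limit in this line. ELF3, an epithelial factor (GSHG0001542, chr1:202007945-202017183), had 6.95, 42.5 and 20.8 normalized counts with BEZ235, against 78.9, 68.2 and 111 with DMSO. The groups did not overlap, but the lowest BEZ235 library held 6 units. The log2 fold change was -2.12 (standard error 0.548, limma adjusted p = 0.00546), and -2.69 to -1.47 over 18 alternative analyses. Its row overlaps ELF3-AS1, at 33.8 normalized counts with BEZ235 and 47.7 with DMSO, and an unnamed row, at 25.3 with BEZ235 and 34.1 with DMSO. Without strand information reads of ELF3 and ELF3-AS1 cannot be told apart. SPDEF, a factor of secretory epithelia (GSHG0037889, chr6:34537802-34556333), had 3.47, 11.9 and 29.9 normalized counts with BEZ235 and 46.5, 20.7 and 67.6 with DMSO. The groups overlapped, and the call as lower (log2 fold change -1.77, standard error 0.712, limma adjusted p = 0.0471) was lost in 9 of 17 alternative analyses; without BEZ235 library 1 the log2 fold change was -1.05 (limma adjusted p = 0.151). Of the other epithelial factors, EHF had 0 units in all 6 libraries, with the upper limits given for ERG, and ELF5 had 1 unit, in DMSO library 3. Epithelial markers moved in both directions: 10 of 13 were tested, 3 rose and 2 fell, and their summed level was 3794 to 3935 normalized counts with BEZ235 and 20810 to 21720 with DMSO. Of that sum ESRP1 alone averaged 22.1 with BEZ235 and 18010 with DMSO, KRT8 and MUC1 came next in DMSO, and KRT19 and KRT5 were at 0. The part of epithelial transcripts in the ELF3 and SPDEF results was not tested.

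SPIB, a factor of B cells and plasmacytoid dendritic cells (GSHG0021880, chr19:50418936-50431314), had 31.3, 39.5 and 44.4 normalized counts with BEZ235, against 11.9, 3.10 and 6.68 with DMSO. All BEZ235 libraries lay above all DMSO libraries, at 27 to 49 units against 3 to 11 units. The log2 fold change was 2.40 (standard error 0.566, limma adjusted p = 0.00315), and 1.51 to 2.80 over 17 alternative analyses. SPIB passed the filter on low values through its BEZ235 libraries, so a difference was built into its being tested. Its relative SPIC had 0 units in all 6 libraries, with the limits given for ERG. Of 12 blood markers 7 were tested, 3 rose and 1 fell, and their sum was 3078 to 3329 normalized counts with BEZ235 and 2893 to 4744 with DMSO, with CD68, HBA1 and HBA2 highest in DMSO and CD3E and HBB at 0. Their part in the SPIB result was not tested.

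To compare genes with each other, normalized counts were divided by the length of merged exons, and each ETS gene was expressed as a share of the summed level of the 22 tested ETS genes. The pool had a single dominant transcript. ERF made up 59.7% ± 1.0 of the summed ETS level with BEZ235, against 44.7% ± 0.96 with DMSO (SD, n = 3 each). ELK1 followed with 11.4% ± 0.34 with BEZ235 and 22.1% ± 0.75 with DMSO. FEV took 9.71% ± 0.44 with BEZ235 and 3.06% ± 0.32 with DMSO, and among all 24 genes its level per kilobase stood at place 5 with BEZ235 and place 9 with DMSO. ETV5 moved the other way, with 2.69% ± 0.18 of the pool and place 8 with BEZ235, against 6.40% ± 0.29 and place 5 with DMSO. FLI1, including whatever the fusion contributes, took 0.902% ± 0.033 with BEZ235 and 1.17% ± 0.041 with DMSO. ELK4 stood at place 20 with BEZ235 and place 16 with DMSO. Some neighbours in this order did not differ beyond their spread: FEV, ETV3, GABPA and ETS2 had 740 ± 106, 736 ± 58.8, 777 ± 44.3 and 818 ± 31.9 normalized counts per kilobase in DMSO.

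The summed ETS level was 30476, 30811 and 27881 normalized counts per kilobase with BEZ235, against 23125, 25809 and 23507 with DMSO. All BEZ235 sums were higher. Without ERF the order turned round, with 12088, 12283 and 11569 with BEZ235 and 12971, 13997 and 13071 with DMSO. By subfamily, the level per kilobase with BEZ235 relative to DMSO was 3.08 for the ERG group (FLI1 and FEV), 1.61 for the ERF group, 0.839 for the ELF group, 0.663 for the ternary complex factors, 0.585 for the PEA3 group and 0.51 for ETS1 and ETS2. These ratios follow the most abundant member of each group, FEV, ERF, ELF1, ELK1, ETV5 and ETS2. Shares depend on the assumed lengths: with the longest coding transcript of each gene, ERF took 59.4% with BEZ235 and 43.8% with DMSO, FEV 8.62% with BEZ235 and 2.68% with DMSO, and FLI1 1.45% with BEZ235 and 1.85% with DMSO.

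**Figure D3:**
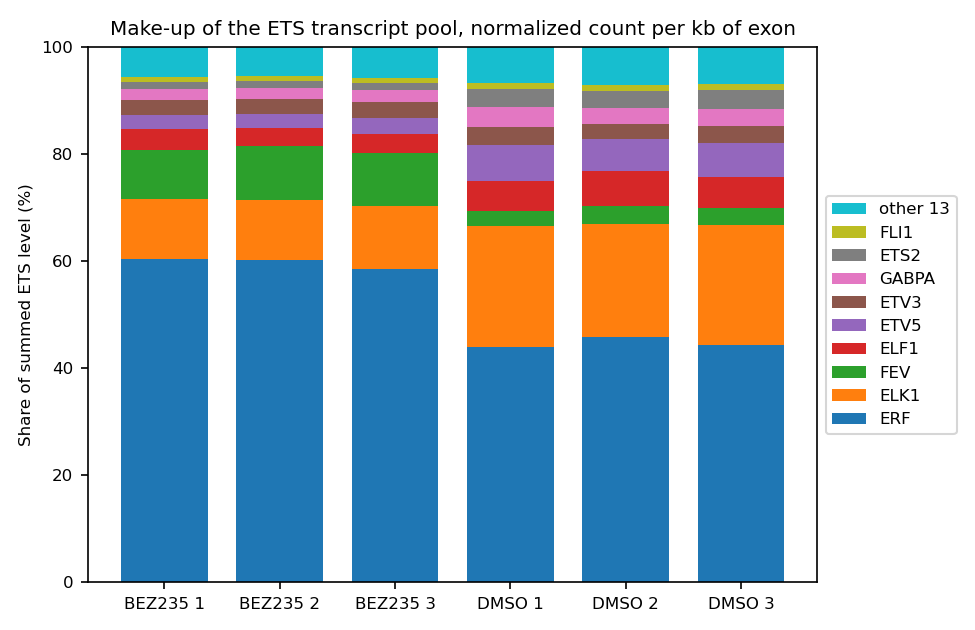
Share of each ETS gene in the summed ETS level (normalized counts per kilobase of exon, percent) in the 3 BEZ235 and 3 DMSO libraries; the other 13 genes are merged. The ERF block takes 58.5 to 60.3% in BEZ235 bars and 43.9 to 45.8% in DMSO bars, and the FEV block 9.21 to 10.0% in BEZ235 bars and 2.70 to 3.26% in DMSO bars.

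Known partners, regulators and targets of these factors were read from 7 lists with 89 genes, 88 of them tested. With BEZ235, 24 of the 88 rose and 44 fell (77.3% called, against 66.3% of all tested genes). The median of their log2 fold changes was -0.20, against 0.00 for all tested genes. The share of all genes called depends on the filter on low values. With the filter at 50, 7333 of 19791 tested genes were called higher and 7442 lower, and 23 list genes rose and 44 fell. The part of expression level in the share of list genes called was not tested.

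Proteins that repress ETS genes or control the turnover of ETS proteins moved in both directions: 3 of 14 rose and 6 fell, and the median of their log2 fold changes was 0.02. CIC, the repressor of the PEA3 genes, averaged 22540 ± 992 normalized counts with BEZ235 and 16340 ± 235 with DMSO (SD, n = 3 each), a log2 fold change of 0.46 (limma adjusted p = 1.12e-05). Its gene lies 13.4 kb from ERF, which also rose. ATXN1, a corepressor that works with CIC, fell, averaging 2413 ± 110 normalized counts with BEZ235 and 6284 ± 392 with DMSO (log2 fold change -1.38, limma adjusted p = 1.81e-08). SIN3A, the scaffold of a histone deacetylase complex, and DET1, part of a ubiquitin ligase for PEA3 proteins, rose by 0.53 and 0.93 on the log2 scale. TRIB1 and TRIB2, adaptors of the ligase COP1, fell by 0.41 and 0.55.

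Among DNA-binding partners and coactivators, 6 of 14 tested genes rose and 4 fell, and the median of their log2 fold changes was -0.03. PAX5, counted as a rise, passed the filter on low values only through its BEZ235 libraries, so a difference was built into its being tested. With the filter at 50, 5 genes rose. IRF8 was listed at 0 and not tested. GABPB1, the partner of GABPA that carries the activation domain of their complex, fell, averaging 1367 ± 48.2 normalized counts with BEZ235 and 3886 ± 381 with DMSO (SD, n = 3 each; log2 fold change -1.50, standard error 0.079, limma adjusted p = 3.77e-08). SRF, the partner of the ternary complex factors, fell by 0.59 on the log2 scale and its coactivator MRTFA by 0.28, whereas the related MRTFB rose by 0.66. CBFB, partner of the RUNX factors that bind beside ETS1, rose by 0.65, and the acetyltransferase EP300 by 0.58.

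The RAS-ERK cascade, which phosphorylates many ETS proteins, had 3 of 18 genes higher and 11 lower (77.8% called, against 66.3% of all tested genes). The median of their log2 fold changes was -0.28. The largest fall was that of RPS6KA2, a kinase downstream of ERK, with 237 ± 32.0 normalized counts with BEZ235 and 2509 ± 119 with DMSO (SD, n = 3 each; log2 fold change -3.41, limma adjusted p = 1.25e-09). MAP2K1, the kinase that activates ERK, fell by 0.99 and the phosphatase PTPN11 by 0.79 on the log2 scale. The adaptor SHC1 rose by 0.88, HRAS by 0.88 and MAPK3, which encodes ERK1, by 0.24. Phosphorylation and protein levels were not measured.

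Genes that CIC represses and ERK signalling induces, other than the ETV genes, did not move together: 3 of 9 rose and 4 fell, and the median of their log2 fold changes was 0.00. DUSP6, a phosphatase that inactivates ERK, averaged 19740 ± 1184 normalized counts with BEZ235 and 6051 ± 1553 with DMSO (SD, n = 3 each; log2 fold change 1.73, limma adjusted p = 8.02e-07). The ERK pathway inhibitors SPRED1 and SPRED3 rose by 0.95 and 0.36 on the log2 scale. DUSP5 fell by 1.15, DUSP4 by 0.72 and SPRY2 by 0.47. ETV5, from the same regulatory group, thus shared its direction with DUSP5 and differed in direction from DUSP6.

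Immediate early genes with serum response elements, the classical targets of ternary complex factors, had 2 of 11 higher and 7 lower. Of these 11, 81.8% were called, against 66.3% of all tested genes, and the median of their log2 fold changes was -0.49. FOS averaged 58.7 ± 1.31 normalized counts with BEZ235 and 637 ± 46.2 with DMSO (SD, n = 3 each; log2 fold change -3.41, limma adjusted p = 9.86e-09). EGR1 fell by 1.43 and NR4A1 by 0.81 on the log2 scale. EGR3 rose by 1.31 and IER2 by 0.32.

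Of 9 nuclear genes for mitochondrial proteins that GABP is known to bind, 1 rose and 6 fell (77.8% called, against 66.3% of all tested genes). The median of their log2 fold changes was -0.28. COX6C and COX7A2, subunits of cytochrome c oxidase, fell by 0.67 and 0.44 on the log2 scale. TFB2M, a transcription factor of mitochondrial DNA, rose by 0.85 (limma adjusted p = 2.93e-07). The share of mitochondrial transcripts, given above, was lower with BEZ235 as well, and its part in these results was not tested.

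The list of genes linked to FET proteins or their fusion had 6 of 13 higher and 6 lower (92.3% called, against 66.3% of all tested genes). The median of their log2 fold changes was -0.06. DHX9, a helicase that binds the EWSR1-FLI1 protein, averaged 57930 ± 3514 normalized counts with BEZ235 and 15230 ± 715 with DMSO (SD, n = 3 each; log2 fold change 1.93, standard error 0.060, limma adjusted p = 9.99e-10). HNRNPA1, an abundant RNA-binding protein, rose by 1.99, although pseudogene copies make its counts uncertain, and SMARCC1, a subunit of the BAF chromatin complex, by 0.47. BARD1, which dimerises with BRCA1, fell by 1.10, the RNA polymerase II subunit POLR2A by 0.79 and the arginine methyltransferase PRMT1, which modifies EWSR1, by 0.36.

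**Figure D4:**
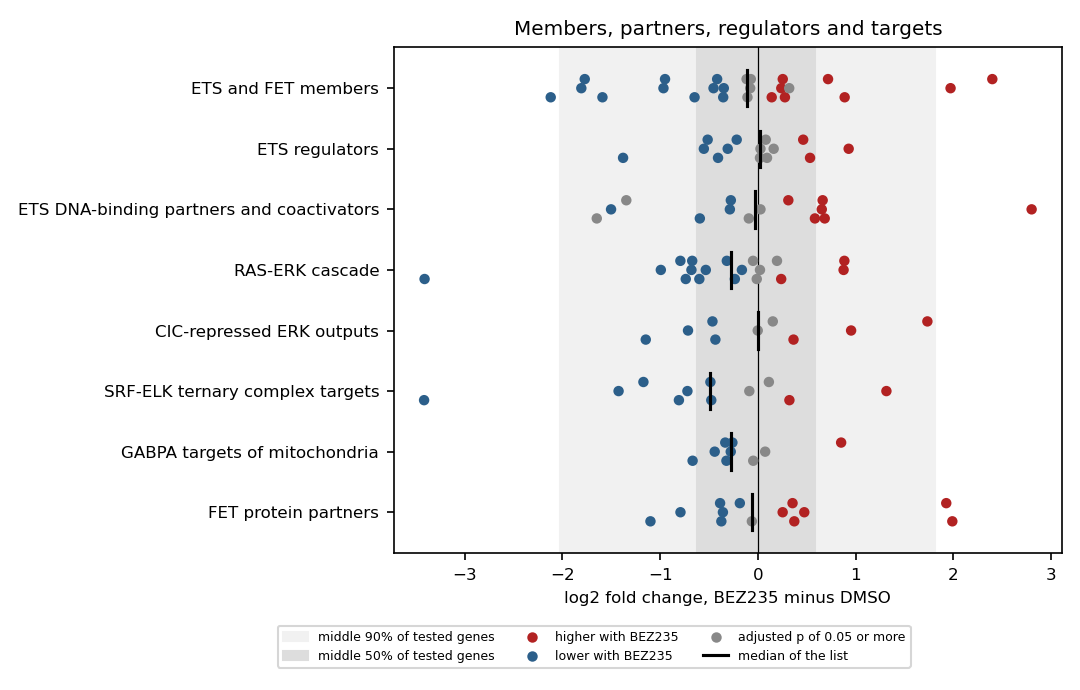
Log2 fold changes, BEZ235 minus DMSO, of the ETS and FET genes and of the 7 lists; each point is a tested gene, coloured by its call, bars are list medians, and the grey bands hold the middle 50% (-0.63 to 0.58) and 90% (-2.02 to 1.81) of all tested genes. Most points lie within the outer band; RPS6KA2 and FOS (both -3.41) stand furthest to the left.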

How the data were processed

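RNA sequencing covered 6 libraries of TC-71 cells, 3 treated with BEZ235 and 3 with DMSO. The authors deposited normalized read counts per gene, a signal that is never negative, with FASTDB gene rows and hg38 coordinates per the file headers. STAR 2.4.0, DESeq, SAMtools, Picard, FastQC and the build hg38 are named, without roles, per the submitters' processing notes; the sources used here do not give the counting rule or strandedness. Every deposited value was a whole multiple of 1 step per library (100% within a tolerance of 0.01), 0.835 to 1.16 normalized counts, which gave counting units. Of values of 1 to 29 units, 78.2 to 80.4% were multiples of 3, against 33.3% if no unit were favoured; of values of 1000 to 9999 units, 33.6 to 35.7%. What makes this pattern is not stated, so limits from a count of 0 are stated for 3 and for 9 units and cover counting error only.

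Columns named as controls were taken as DMSO by their number, since no other control samples exist in the labels. Rows with at least 10 normalized counts in at least 3 of 6 libraries were tested with limma 3.58.1 (R 4.3.3) with a mean-variance trend on log2(normalized count + 1), two-sided, with Benjamini-Hochberg adjustment over 23923 rows and a threshold of 0.05. Fold changes on this scale understate the change of low genes. Alternatives were TMM, total-count and quantile scaling, pseudocounts of 0.5 and 10, no filter and a filter at 50, no trend, a replicate block, omission of each library, and edgeR 4.0.16 and DESeq2 1.42.0 on the units. edgeR called 15744 rows and DESeq2 15706, against 15863 for limma. The fits were tested on simulated data. Levels per kilobase used merged GENCODE 29 exons inside each row. The 21404 rows without a symbol were left out of the totals used for total-count scaling.

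The members and the gene lists were chosen with earlier results of these data known. All 30 members are accounted for. Values in every library are given for EWSR1, TAF15, FLI1, ERG, FEV and members called with a change of at least 2-fold. In each list up to 3 genes per direction, by smallest adjusted p, are given at least by their log2 fold change, and the 3 highest markers in DMSO are named; 1 gene that this rule selects is not reported here.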

Additional observations from a re-analysis of the deposited data

How the results depend on the processing

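Over the alternatives, 6448 to 8403 genes were called higher and 7180 to 9091 lower, against 7912 and 7951; leaving out each library gave 7078 to 7997 higher and 7180 to 7901 lower. Members called higher numbered 4 under total-count scaling, against 8, where EWSR1, ETV3, ELF2 and ELK3 were lost, and 6 to 8 without 1 library. Members called lower numbered 9 to 11 without 1 library, and 6 among the 14 tested members whose row overlaps no tested row, where fewer genes are counted. ETV1 had log2 fold changes of -0.183 to 0.085 without 1 library, reversed without DMSO library 2 (limma adjusted p = 0.317), while over all its alternatives the adjusted p was 0.18 to 0.844; the cause was not tested. EWSR1, ELK3 and SPDEF were the calls that most often missed the threshold (adjusted p over their alternatives 0.00149 to 0.891, 0.00106 to 0.322 and 0.0138 to 0.172), and ETV6 missed it without BEZ235 library 1. TAF15, FEV, ETS1, ETS2, ETV2, ETV5, ELF1, ELF3, ELK1, ELK4, ERF, GABPA and SPIB kept their direction and call in every alternative run for them. The lists had 20 to 27 genes called higher and 42 to 50 lower, against 24 and 44. The ERF share of the ETS level was 59.3 to 60.2% with BEZ235 and 44.2 to 45.1% with DMSO without 1 library. The alternatives chosen after seeing the data were edgeR on units divided by 3 (16000 genes called), the longest coding transcript as length, the ETS shares without 1 library, and members with a mean of at least 50 normalized counts. Members below that mean rest on few units.

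Same-numbered libraries did not deviate together (correlations of -0.04, 0.02 and 0.04 between BEZ235 and DMSO libraries of the same number), and BEZ235 library 1 correlated best with DMSO library 2 (0.07). The replicate number as a block gave 7932 genes higher and 7985 lower, 8 members higher and 11 lower, and 25 list genes higher and 44 lower.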
